A study of Mus musculus with 6 samples.

Results

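The 38 genes described here encode extracellular matrix proteins other than collagens, the enzymes that cross-link or process matrix fibers, and 3 genes that mark activated fibroblasts. They were chosen by name, matched by exact symbol, and all 38 were found among the 26167 genes measured. By role, 12 belong to microfibrils and elastic fibers, 5 cross-link fibers or process collagen, and 10 are adhesive and matricellular glycoproteins. A further 8, called proteoglycans here, are core proteins of proteoglycans or small leucine-rich proteins of the same family. The last 3 (Fap, Acta2, and Tagln) are activated fibroblast genes. Their RNA was measured in tumors grown from Hepa1-6 cells, a mouse hepatoma line that the sample labels call Hep1-6. They were grown subcutaneously in female C57BL/6J mice, bought at 6 to 8 weeks of age, from an injection of cells on day 0. Sora (sorafenib) inhibits several kinases, among them RAF kinases and the receptors of VEGF and PDGF, and the treated mice were given 10 mg/kg intraperitoneally every other day, on day 9, day 11, day 13, and day 15. Control tumors came from the same model without Sora, and the vehicle is not given in the sources used here. There were 3 control tumors (numbered 1, 3, and 4) and 3 Sora-treated tumors (numbered 2, 3, and 4), with 1 library each. The tumors thus grew outside the liver, and markers of skin, muscle, and fat were measured beside the matrix genes.

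In a solid tumor most of the interstitial matrix is made by fibroblasts and pericytes, which become contractile, matrix-secreting myofibroblasts under TGF-beta and mechanical load. Fibronectin is laid down early and guides the deposition of collagen. Small leucine-rich proteins such as decorin and asporin then bind collagen fibrils, and lysyl oxidases cross-link them. Fibrillin microfibrils carry elastin and hold TGF-beta in a latent form through the LTBP proteins. Hepatoma cells can also make matrix proteins, fibronectin among them. In whole tumors, fewer cells of a type and less RNA per cell cannot be told apart.

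The libraries held 31073830 to 36205814 reads counted on genes. The authors' count table, as used here, holds 5 tumors, and the counts of Sora-treated tumor 4 were recovered from its FPKM, in which a count is scaled to the length of the gene and to the depth of the library. In that tumor 100% of the recovered values lay within 0.001 of a whole number. This tumor stood apart for the genes described here. It had the lowest FPKM of the 6 tumors for 30 of the 38 genes (78.9%), whereas it had the lowest FPKM for 25.0% of the 16513 genes tested. The median log2 ratio of the 38 genes to the mean of the control tumors was -0.09 in Sora-treated tumor 2, -0.06 in tumor 3, and -0.41 in tumor 4. Control tumor 4 had the highest FPKM for 16 of the 38 genes and Sora-treated tumor 4 for 0. Values with and without Sora-treated tumor 4 are therefore given for the members described by a log2 fold change, and those without it rest on deposited counts alone. Where 3 values of a group follow each other, they are those of control tumors 1, 3, and 4 or of Sora-treated tumors 2, 3, and 4, in this order.

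Aspn and Postn, the members with the smallest p, are shown with the 250 bases before their transcription start, because both fell in Sora-treated tumors. The study names GRCm38 and the submitters' processing notes GRCm39. The sequences and all coordinates given here are from RefSeq on GRCm38.p6, plus strand, at chr13:49544193-49544442 for Aspn and chr3:54359017-54359266 for Postn. Capitals mark CAGAC, the core bound by SMAD proteins, and TATAAA, the letters of a TATA box, each searched on both strands with no overlap between them. These are matches of letters, and whether any of them acts as such a site was not tested.
Aspn: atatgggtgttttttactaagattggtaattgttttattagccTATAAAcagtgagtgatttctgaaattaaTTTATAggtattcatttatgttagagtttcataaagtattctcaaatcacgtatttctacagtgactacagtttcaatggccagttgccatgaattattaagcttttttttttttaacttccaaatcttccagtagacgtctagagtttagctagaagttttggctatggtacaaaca
Postn: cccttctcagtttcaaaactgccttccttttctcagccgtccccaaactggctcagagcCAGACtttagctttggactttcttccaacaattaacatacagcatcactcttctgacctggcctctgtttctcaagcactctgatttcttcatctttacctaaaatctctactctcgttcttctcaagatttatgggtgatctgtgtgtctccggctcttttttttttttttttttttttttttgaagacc
The Aspn window held TATAAA letters 207 and 178 bases before the start and no CAGAC, and the Postn window held CAGAC 191 bases before the start. CAGAC was in 42.2% and TATAAA in 12.4% of all 32851 such windows. Windows were found for 23 of the 38 genes, and 15 of their 29 windows held CAGAC and 6 held TATAAA.

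All 38 genes passed the filter on low counts. Aspn, Postn, and Mfap5 fell in Sora-treated tumors (edgeR's quasi-likelihood test, called where the adjusted p was under 0.05), and no member rose. These 3 are 7.89% of the members, against 3.29% of all genes tested (1.34% lower and 1.94% higher). At an unadjusted p under 0.05 there were 11 members (28.9%), against 17.2% of all genes, and of these Ltbp1 was the only gene with a higher value in Sora-treated tumors. The log2 fold change was below 0 for 29 members (76.3%), against 50.1% of all genes. Its median was -0.18 over the members and -0.0004 over all genes. FPKM did not overlap between the groups, with Sora-treated tumors lower, for 6 members (Aspn, Postn, Mfap5, Mfap2, Thbs3, and Pcolce), or 15.8% against 11.2% of all genes. Ltbp1 was the only member with all Sora-treated tumors higher, where 10.6% of all genes were.

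**Figure D1:**
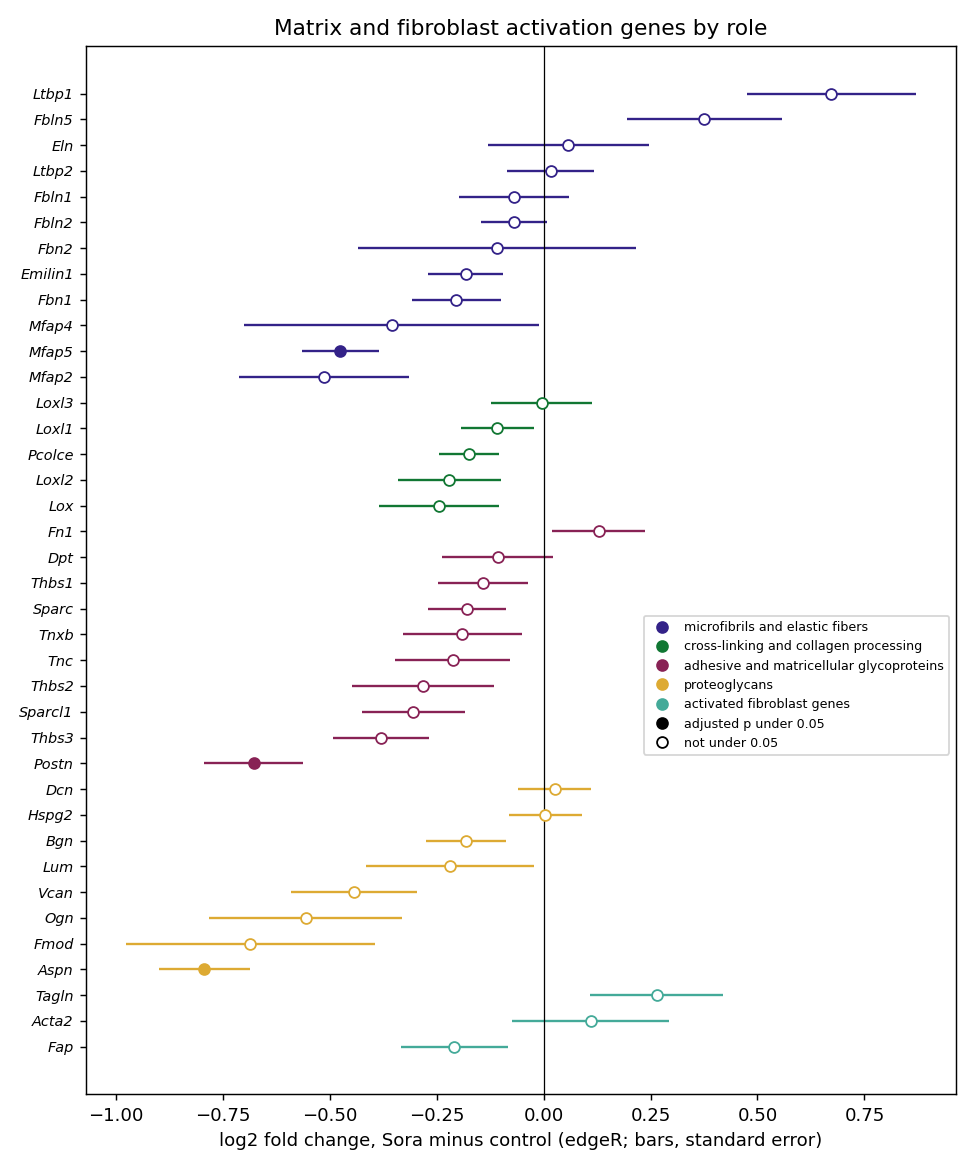
Log2 fold change (Sora-treated minus control tumors, edgeR, x axis) of each of the 38 genes (y axis), ordered within 5 roles shown by color, with bars for the standard error and filled points for an adjusted p under 0.05. Aspn, Postn, and Mfap5 are filled and lie left of 0, and 29 of the 38 points lie left of 0.

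Without Sora-treated tumor 4, the log2 fold change was below 0 for 27 members, against 50.6% of all genes, and its median was -0.09. FPKM of 6 members then did not overlap with Sora-treated tumors lower, against 13.5% of all genes, and of 4 members with Sora-treated tumors higher, against 15.3% of all genes. In edgeR's test on these 5 tumors no member had an adjusted p under 0.05, and 7 had an unadjusted p under 0.05, against 11.9% of all genes. After adjustment 5 of the 16319 genes tested passed (0.00613% lower and 0.0245% higher). DESeq2 on the same 5 tumors called 3 members lower (Aspn, Postn, and Mfap5), against 1.42% of all genes, and none higher, against 1.75% of all genes. On 6 tumors DESeq2 called 4 members lower, with Vcan added, against 3.72% of all genes, and Ltbp1 higher, against 4% of all genes.

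**Figure D2:**
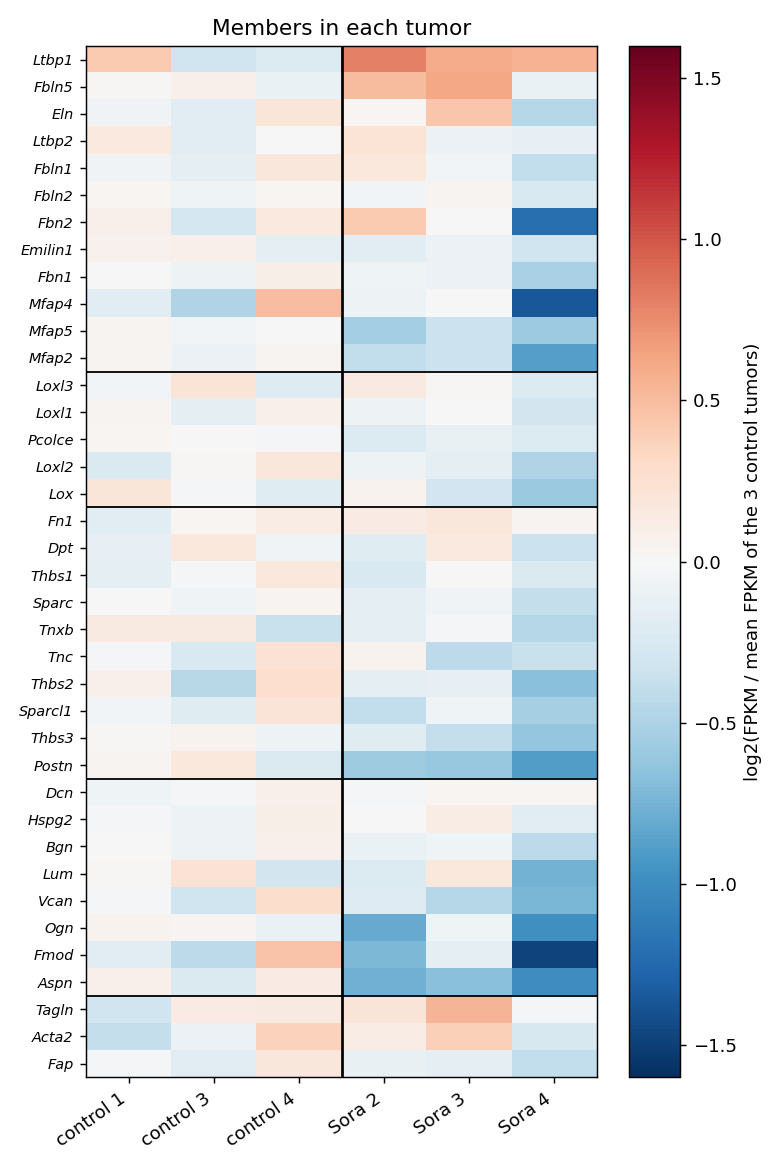
Heatmap of log2 FPKM of each gene (rows, in the same order by role) in each tumor (columns), relative to the mean of the 3 control tumors, with blue for lower and red for higher values. The column of Sora-treated tumor 4 is blue for most genes, whereas the rows of Aspn, Postn, and Mfap5 are blue in all 3 Sora-treated tumors.

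Levels of different genes were compared in FPKM. Fn1, which encodes fibronectin, had the highest level of the 38 genes, and Dcn (decorin), Sparc (a collagen-binding matricellular protein), Bgn (biglycan), and Pcolce followed. This order was the same in each of the 6 tumors. Fn1 and Dcn held 50.7% of the summed mean FPKM of the 38 genes, and the first 5 held 79.8%. The sum over the 38 genes was 3353, 3456, and 3666 FPKM in control tumors 1, 3, and 4, and 3368, 3519, and 3105 FPKM in Sora-treated tumors 2, 3, and 4. The summed level thus overlapped between the groups. Fbn2, encoding a fibrillin of developing tissue, had the lowest mean level and Ltbp1 the next. The coefficient of variation of FPKM had a median of 12.4% in control tumors (2.06% to 35.8%) and of 14.8% in Sora-treated tumors (2.29% to 49.4%). It was largest for Fbn2 in Sora-treated tumors and for Mfap4 in control tumors, which had as few as 74 and 63 reads in a tumor.

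Among the proteoglycans, Aspn had the largest fall of all 38 genes. Aspn encodes asporin, a small leucine-rich protein that binds collagen and TGF-beta, and lies on chromosome 13 of GRCm38.p6 (49544443 to 49567565). Its level was 17.8, 14.4, and 18.4 FPKM in control tumors, against 9.91, 10.7, and 8.45 FPKM in Sora-treated tumors. Every Sora-treated tumor lay below every control tumor, with means of 16.9 ± 2.15 and 9.68 ± 1.13 FPKM (SD, n = 3). The log2 fold change was -0.79 ± 0.11 (SE), with an edgeR adjusted p of 0.0085. Without Sora-treated tumor 4 it was -0.72, with an adjusted p of 0.058 in edgeR.

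Aspn lies inside the span of Cenpp, a centromere protein gene on the opposite strand, and shares 7 exon bases with it. Cenpp was at 0.444 to 0.494 FPKM in control and 0.398 to 0.411 FPKM in Sora-treated tumors, and its groups did not overlap either (log2 fold change -0.17, edgeR adjusted p = 0.72). Ecm2, Omd, and Ogn lie in the same span. They were looked up after the values of Aspn were seen. Ogn encodes osteoglycin, a further small leucine-rich protein, and was at 2.89, 2.85, and 2.58 FPKM in control tumors, against 1.59, 2.64, and 1.41 FPKM in Sora-treated tumors. Sora-treated tumor 3 lay within the control range, and the log2 fold change of -0.56 had an adjusted p of 0.23 in edgeR. It was -0.40 without Sora-treated tumor 4. Leaving out Sora-treated tumor 3 instead gave -0.87, where the adjusted p was 0.024 in edgeR. Ecm2 had a log2 fold change of -0.58 (edgeR adjusted p = 0.36), and Omd had too few reads to be tested.

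Dcn, from the same class of small leucine-rich proteins as Aspn, overlapped between the groups. It was at 732, 755, and 813 FPKM in control tumors, against 754, 783, and 786 FPKM in Sora-treated tumors. Each Sora-treated tumor lay within the control range, with a log2 fold change of 0.03 ± 0.09 (SE) and an edgeR adjusted p of 0.91. It was -0.0023 without Sora-treated tumor 4. Bgn, also of this class, was at 298 to 336 FPKM in control and 237 to 302 FPKM in Sora-treated tumors (log2 fold change -0.18, or -0.093 without Sora-treated tumor 4, edgeR adjusted p = 0.37 with it). Aspn amounted to 2.44%, 1.91%, and 2.27% of Dcn in control tumors, against 1.31%, 1.36%, and 1.07% in Sora-treated tumors, in FPKM. The shares did not overlap (p = 0.1 in a two-sided exact permutation test, below which 3 tumors against 3 cannot go, and 0.12 after adjustment over 6 ratios). These ratios were chosen after the values were seen. A ratio within a tumor does not depend on how the libraries are scaled.

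Fmod and Vcan had lower means in Sora-treated tumors without passing the test. Fmod encodes fibromodulin, which steers collagen fibril assembly, and was at 3.78, 3.20, and 5.85 FPKM in control tumors, against 2.59, 3.83, and 1.53 FPKM in Sora-treated tumors. Its log2 fold change was -0.69 ± 0.29 (SE), with an edgeR adjusted p of 0.25, and its groups overlapped. This value was -0.42 without Sora-treated tumor 4, -0.39 without control tumor 4, and -1.04 without Sora-treated tumor 3. Vcan encodes versican, a large proteoglycan that binds hyaluronan, and was at 2.69 to 4.09 FPKM in control and 2.02 to 2.90 FPKM in Sora-treated tumors (log2 fold change -0.44, edgeR adjusted p = 0.14). Its log2 fold change was -0.33 without Sora-treated tumor 4 and -0.28 without control tumor 4. Of the other proteoglycans, Lum (lumican) was at 13.2 to 19 FPKM in control and 9.56 to 18.2 FPKM in Sora-treated tumors. Hspg2 (perlecan, of basement membranes) was at 38.6 to 43.3 and 36.3 to 44.4 FPKM. Both overlapped between the groups. In all, 6 of the 8 proteoglycans had a log2 fold change below 0, with a median of -0.33. This median was -0.21 without Sora-treated tumor 4.

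Among the adhesive and matricellular glycoproteins, Postn fell. Postn encodes periostin, secreted by activated fibroblasts and bound to fibronectin and collagen, and lies on chromosome 3 of GRCm38.p6 (54359267 to 54391041). It was the sixth gene by mean level, at 158, 173, and 132 FPKM in control tumors, against 104, 101, and 82.6 FPKM in Sora-treated tumors. The groups did not overlap, with means of 154 ± 20.8 and 95.9 ± 11.6 FPKM (SD, n = 3). The log2 fold change was -0.68 ± 0.12 (SE), with an edgeR adjusted p of 0.017. Without Sora-treated tumor 4 it was -0.60, with an adjusted p of 0.097 in edgeR.

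Fn1 had a higher mean in Sora-treated tumors, with groups that overlapped. It was at 820, 937, and 997 FPKM in control tumors, against 1001, 1044, and 948 FPKM in Sora-treated tumors (log2 fold change 0.13 ± 0.11 SE, edgeR adjusted p = 0.61). This difference was 0.15 without Sora-treated tumor 4 and 0.04 without control tumor 1. Postn amounted to 19.3%, 18.4%, and 13.2% of Fn1 in control tumors, against 10.4%, 9.7%, and 8.72% in Sora-treated tumors. These shares did not overlap (exact permutation test, two-sided p = 0.1, adjusted p = 0.12). This ratio too was chosen after the values were seen, with Postn already separated between the groups. The exons of Fn1 share 292 bases with those of Apol7d on the opposite strand.

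The other 8 genes of this role had log2 fold changes below 0, and none passed the test. Thbs3, a thrombospondin, was at 7.23, 7.40, and 6.76 FPKM in control tumors, against 6.24, 5.48, and 4.63 FPKM in Sora-treated tumors. Its groups did not overlap (log2 fold change -0.38, or -0.29 without Sora-treated tumor 4, edgeR adjusted p = 0.095 with it), and its exons share 318 bases with those of Mtx1 on the opposite strand. Sparcl1 (hevin, a relative of SPARC) was at 25.1 to 33.2 FPKM in control and 19.95 to 27.5 FPKM in Sora-treated tumors (log2 fold change -0.30, edgeR adjusted p = 0.21). Its log2 fold change was -0.22 without Sora-treated tumor 4, -0.19 without control tumor 4, and -0.44 without Sora-treated tumor 3, where the adjusted p was 0.039 in edgeR. Sparc itself was at 485 to 521 and 387 to 487 FPKM (log2 fold change -0.18, or -0.10 without Sora-treated tumor 4, edgeR adjusted p = 0.35 with it). Thbs1 and Thbs2, Tnc (tenascin C), Tnxb, and Dpt (dermatopontin, abundant in dermis) overlapped between the groups.

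Among the genes of microfibrils and elastic fibers, Mfap5 fell. Mfap5 encodes a small glycoprotein attached to fibrillin microfibrils, and lies on chromosome 6 of GRCm38.p6 (122513584 to 122529290). It was at 18.2, 17.1, and 17.5 FPKM in control tumors, against 12.0, 13.9, and 11.8 FPKM in Sora-treated tumors. The groups did not overlap, with means of 17.6 ± 0.55 and 12.6 ± 1.16 FPKM (SD, n = 3). The log2 fold change was -0.48 ± 0.09 (SE), with an edgeR adjusted p of 0.023, and leaving out any single tumor gave -0.54 to -0.44 (-0.45 without Sora-treated tumor 4). The call was the weakest of the 3: without Sora-treated tumor 3 the adjusted p stayed under 0.05 in edgeR (0.0084), whereas without any other single tumor it lay between 0.053 and 0.12.

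**Figure D3:**
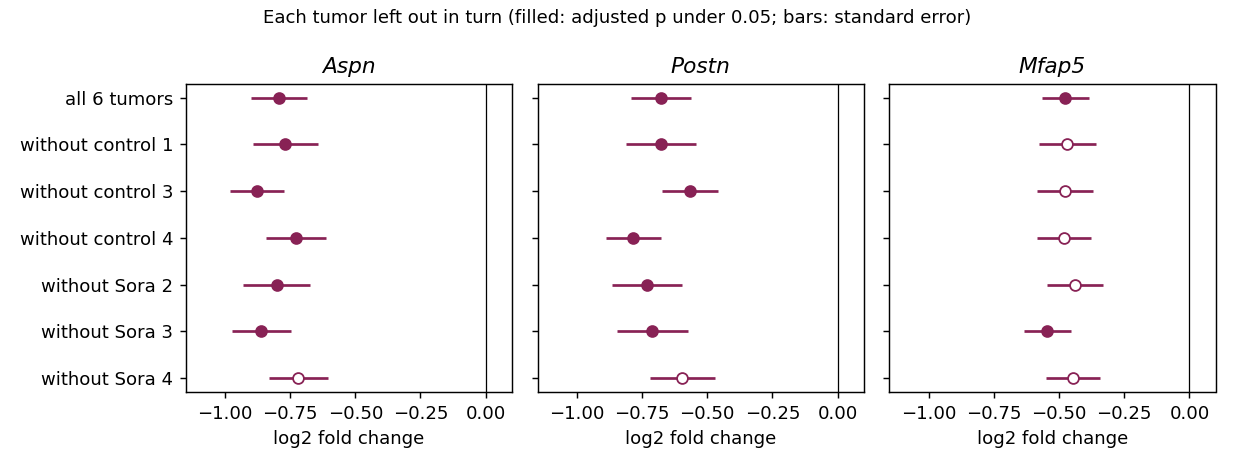
Log2 fold change (x axis) of Aspn, Postn, and Mfap5 in edgeR with all 6 tumors and with each tumor left out (y axis), with bars for the standard error and filled points for an adjusted p under 0.05. All points lie left of 0, the points without Sora-treated tumor 4 are open for all 3 genes, and 5 of the 6 left-out settings are open for Mfap5.

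Mfap2, which encodes a further microfibril-associated glycoprotein, was at 3.87, 3.50, and 3.85 FPKM in control tumors, against 2.84, 2.95, and 2.02 FPKM in Sora-treated tumors. The groups did not overlap, and the log2 fold change of -0.51 had a standard error of 0.20 (edgeR adjusted p = 0.21). It was -0.37 without Sora-treated tumor 4. Fbn1, the main fibrillin, was at 25.2 to 28.4 FPKM in control and 18.7 to 25.4 FPKM in Sora-treated tumors, with overlap, and it shares 2442 exon bases with Gm9913 on the opposite strand. Mfap5 amounted to 68.2%, 67.8%, and 61.7% of Fbn1 in control tumors, against 47.3%, 55.2%, and 63% in Sora-treated tumors (exact permutation test, two-sided p = 0.2). This ratio overlapped, through Sora-treated tumor 4, in which Fbn1 had its lowest level.

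Ltbp1 and Fbln5 had the largest log2 fold changes above 0 of the 38 genes. Ltbp1 encodes a protein that holds latent TGF-beta in the matrix, and it was at 0.937, 0.56, and 0.601 FPKM in control tumors, against 1.22, 1.055, and 1.03 FPKM in Sora-treated tumors. The groups did not overlap, but the log2 fold change of 0.67 (standard error 0.20) did not pass (edgeR adjusted p = 0.096). It was 0.70 without Sora-treated tumor 4, and 0.92 without control tumor 1, where the adjusted p was 0.045 in edgeR. Fbln5 encodes fibulin 5, needed for elastic fiber assembly, and was at 1.11 to 1.26 FPKM in control tumors and at 1.70, 1.82, and 1.10 FPKM in Sora-treated tumors 2, 3, and 4. Its log2 fold change was 0.38 (edgeR adjusted p = 0.32), and Sora-treated tumor 4 lay below the control tumors. Without that tumor it was 0.56, and without Sora-treated tumor 3 it was 0.25. Eln (elastin), Fbln1, Fbln2, Fbn2, Mfap4, Emilin1, and Ltbp2 overlapped between the groups. Eln was at 3.07 to 3.97 FPKM in control and 2.51 to 4.72 FPKM in Sora-treated tumors. In all, 8 of the 12 genes of this role had a log2 fold change below 0, with a median of -0.088. Without Sora-treated tumor 4 the median turned to 0.025, with 6 genes below and 6 above 0.

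**Figure D4:**
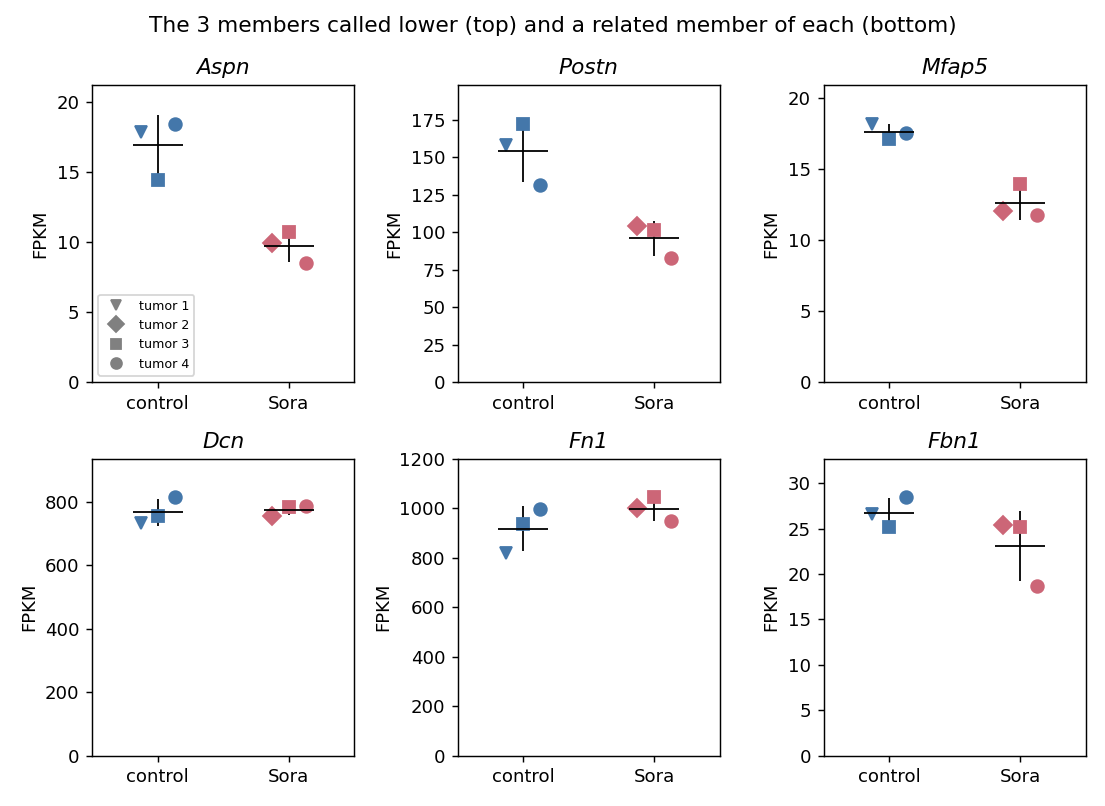
FPKM (y axis, from 0) of Aspn, Postn, and Mfap5 (top) and of Dcn, Fn1, and Fbn1 (bottom) in each control and Sora-treated tumor, with symbols for tumor numbers, horizontal bars for the mean of 3 tumors, and vertical bars for the SD. The groups are separated in the top panels and overlap in the bottom panels.

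The 5 genes of cross-linking and collagen processing had log2 fold changes from -0.24 (Lox) to -0.0046 (Loxl3) on 6 tumors, and none passed the test. On the 5 tumors without Sora-treated tumor 4 they ranged from -0.18 (Pcolce) to 0.07 (Loxl3), with Lox at -0.11, and 4 of the 5 were below 0. Pcolce encodes an enhancer of the enzyme that trims procollagen, and its exons share 112 bases with those of Fbxo24. It was at 242, 238, and 232 FPKM in control tumors, against 204, 218, and 204 FPKM in Sora-treated tumors. These groups did not overlap, at a log2 fold change of -0.17 ± 0.07 (SE) and an edgeR adjusted p of 0.22. It was -0.18 without Sora-treated tumor 4. Lox, the founding lysyl oxidase, was at 43.4, 37.2, and 33.2 FPKM in control tumors, against 39.5, 30.8, and 25.2 FPKM in Sora-treated tumors. Loxl1, Loxl2, and Loxl3 overlapped in the same way, at 16.9 to 19.8, 12.6 to 16.8, and 20.7 to 27.5 FPKM in control tumors and 15.2 to 18.7, 10.6 to 14.0, and 20.4 to 26.3 FPKM in Sora-treated tumors.

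No activated fibroblast gene passed the test. Acta2 encodes the smooth muscle actin of myofibroblasts, pericytes, and vessel walls, and was at 24.9, 30.5, and 42.0 FPKM in control tumors, against 35.3, 42.4, and 27.1 FPKM in Sora-treated tumors. Its log2 fold change was 0.11 ± 0.18 (SE), with an edgeR adjusted p of 0.82, and the spread within each group was wider than the difference. Without control tumor 1 or without Sora-treated tumor 3 the sign turned, to -0.06 and -0.04, whereas it was 0.25 without Sora-treated tumor 4 and 0.33 without control tumor 4. Tagln, which encodes an actin-binding protein of the same cells and shares 1241 exon bases with an antisense gene, was at 13.2 to 18.2 FPKM in control and 16.2 to 24.1 FPKM in Sora-treated tumors (log2 fold change 0.27, edgeR adjusted p = 0.43). Its log2 fold change was 0.37 without Sora-treated tumor 4, 0.12 without control tumor 1, and 0.11 without Sora-treated tumor 3. Fap, a surface protease of activated fibroblasts, was at 4.57 to 5.85 and 3.91 to 4.77 FPKM, and the groups overlapped.

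Other genes of the matrix and of TGF-beta signaling were taken from lists. Of 11 target genes of TGF-beta and YAP, Ccn2 and Ankrd1 rose and none fell, in edgeR's test in which 1.94% of all genes rose. The median log2 fold change of the 11 was 0.15. Ccn2, encoding the matricellular protein CTGF, rose from 94.4 ± 14.8 to 167 ± 18.2 FPKM (SD, n = 3), at a log2 fold change of 0.83 (edgeR adjusted p = 0.013). Ankrd1 had a log2 fold change of 0.60 (edgeR adjusted p = 0.016). Tgfbi, also in this list, was at 72.9 to 81.9 FPKM in control and 72.3 to 77.9 FPKM in Sora-treated tumors. Of 19 ligands, receptors, and SMADs, 2 rose and none fell. They were Smad7, an inhibitor of the pathway that TGF-beta induces, and Acvr1, a receptor of BMPs and activins (log2 fold changes 0.52 and 0.40, edgeR adjusted p = 0.019 and 0.042). Tgfb1 was at 82.0 to 89.2 FPKM in control and 93.0 to 106 FPKM in Sora-treated tumors (log2 fold change 0.24, edgeR adjusted p = 0.14). Tgfb2 went the other way, at 0.443 to 0.495 FPKM in control and 0.237 to 0.356 FPKM in Sora-treated tumors (log2 fold change -0.73, edgeR adjusted p = 0.12). Of the 19 genes, 13 had a log2 fold change above 0 and 6 had one below 0. Without Sora-treated tumor 4, 0 genes of both lists passed in edgeR's test, with Ccn2 at a log2 fold change of 0.83 (adjusted p = 0.070) and Ankrd1 at 0.55 (adjusted p = 0.096). DESeq2 on those 5 tumors called 2 of the 11 target genes and 1 of the 19 others higher. Of the 19, edgeR called 0 also without control tumor 1 (0.705% of all genes called higher) and without control tumor 4 (0.717%). It called 1 without Sora-treated tumor 2 (0.509%). Of the 11 target genes it called 1 without control tumor 1.

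**Figure D5:**
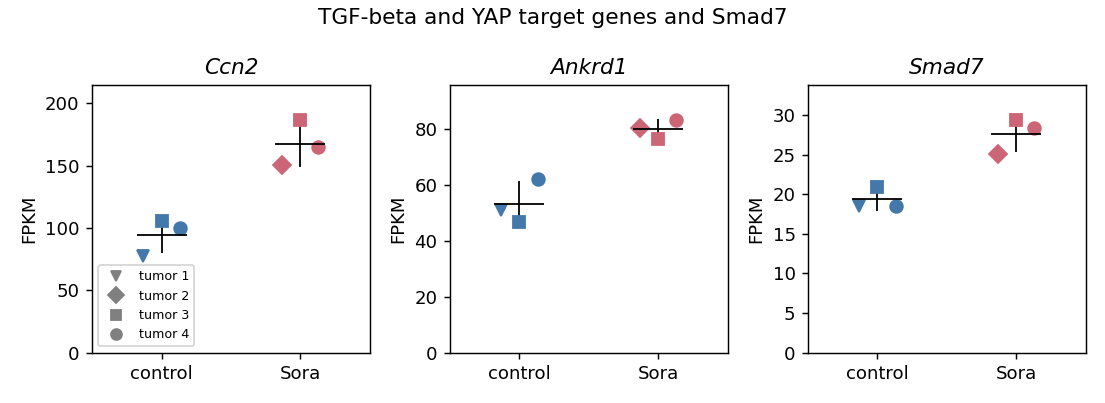
FPKM (y axis, from 0) of Ccn2, Ankrd1, and Smad7 in each control and Sora-treated tumor, with symbols for tumor numbers, horizontal bars for the mean of 3 tumors, and vertical bars for the SD. In each panel the 3 Sora-treated tumors lie above the 3 control tumors.

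Of 31 tested genes among 34 other matrix glycoproteins and proteoglycans, Spon1 fell and Emilin2 rose (log2 fold changes -0.89 and 0.38, edgeR adjusted p = 0.020 and 0.031), and the median was -0.07, or 0.07 without Sora-treated tumor 4. None of 14 collagen genes passed. Their median log2 fold change was -0.29, or -0.19 without Sora-treated tumor 4, and Col1a2 had the smallest p (log2 fold change -0.47, edgeR adjusted p = 0.056). Their summed level was 1583 to 1723 FPKM in control and 1406, 1481, and 1062 FPKM in Sora-treated tumors 2, 3, and 4. Of 18 matrix receptors, Itga2, a subunit of a collagen-binding integrin, rose (log2 fold change 0.70, edgeR adjusted p = 0.026), and none fell.

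Markers of the cells that could carry the matrix genes were measured in the same tumors, and their part in the results was not tested. All 14 fibroblast markers were detected, with Tcf21 at 0 in every tumor but Sora-treated tumor 3, and their summed level was 234 to 246 FPKM in control and 229, 243, and 197 FPKM in Sora-treated tumors 2, 3, and 4. Of the 13 tested, 11 had a log2 fold change below 0, with a median of -0.09 (-0.03 and 8 of 13 without Sora-treated tumor 4). No fibroblast marker passed, and Lrrc15, a marker of myofibroblasts in tumors, had the smallest p (log2 fold change -0.91, edgeR adjusted p = 0.059). Thy1 held the largest part of the summed level, at 126, 112, and 125 FPKM in control tumors and 108, 121, and 96.9 FPKM in Sora-treated tumors. The sum thus mostly follows this gene. Relative to this sum, Aspn was at 7.24%, 6.17%, and 7.51% in control tumors, against 4.32%, 4.4%, and 4.29% in Sora-treated tumors. Postn was at 53.6% to 73.8% of the sum in control and 41.7% to 45.3% in Sora-treated tumors, and Mfap5 at 7.15% to 7.38% and 5.25% to 5.97%. None of these 3 ratios overlapped between the groups (exact permutation test, two-sided p = 0.1 for each, the lowest possible, adjusted p = 0.12). The 3 genes are those called lower, whose FPKM already did not overlap, and the ratios were chosen after the values were seen. The separation was thus largely set by this choice, and a fall beyond that of the fibroblast markers was not tested.

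The 11 markers of pericytes and smooth muscle, of which none was at 0, summed to 117 to 152 FPKM in control and 127 to 159 FPKM in Sora-treated tumors, and Smtn (smoothelin) rose (log2 fold change 0.96, edgeR adjusted p = 0.0071). The 10 endothelial markers summed to 104 to 113 and 78.3 to 107 FPKM, with no gene past the test (smallest edgeR adjusted p = 0.25, Erg). Of these endothelial markers 8 had a log2 fold change below 0 (median -0.21, or -0.14 without Sora-treated tumor 4), and of the 11 pericyte and smooth muscle markers 9 had one above 0 (median 0.12, or 0.20 without that tumor). All 10 macrophage markers had a log2 fold change below 0, with a median of -0.28 on 6 tumors and -0.26 without Sora-treated tumor 4. They summed to 1148 to 1370 and 949 to 1147 FPKM, and Mertk fell (log2 fold change -0.45, edgeR adjusted p = 0.031). The 10 markers of keratinocytes and skin summed to 632, 195, and 224 FPKM in control tumors, against 585, 401, and 396 FPKM in Sora-treated tumors. The 11 markers of skeletal muscle summed to 119 to 159 and 129 to 190 FPKM, and the 7 of adipocytes to 67.7 to 100.5 and 81.1 to 128 FPKM. The log2 fold change was above 0 for all 10 skin markers (median 0.38, or 0.48 without Sora-treated tumor 4), for 10 of the 11 muscle markers (median 0.22, or 0.26), and for all 6 tested adipocyte markers (median 0.65, or 0.63). No gene of these 3 lists passed (smallest edgeR adjusted p = 0.13 for Krt15, 0.33 for Acta1, and 0.063 for Cfd), and none was at 0 in any tumor. The 10 hepatoma markers summed to 2326 to 2946 FPKM in control and 2216 to 2335 FPKM in Sora-treated tumors. Of these, Ttr and Alb fell and Apoa1 rose (log2 fold changes -2.15, -0.55, and 1.03, edgeR adjusted p = 0.0055, 0.041, and 0.047). Apoa1 passed in DESeq2 on the 5 deposited tumors (adjusted p = 0.018) but not in DESeq2 on 6 tumors (adjusted p = 0.063). It also did not pass with robust dispersion in edgeR (adjusted p = 0.23), or in edgeR without any single tumor other than Sora-treated tumor 3 (adjusted p = 0.10 to 0.15), and its log2 fold change was 0.65 without Sora-treated tumor 4. Alb did not pass in edgeR without control tumor 3 or 4 or Sora-treated tumor 2 or 4 (adjusted p = 0.094 to 0.18). Of the genes called in the lists of other matrix genes, matrix receptors, and cell markers, Ttr alone passed without Sora-treated tumor 4 (edgeR adjusted p = 0.046), and the others had adjusted p of 0.054 to 0.17. Spon1 did not pass in edgeR without control tumor 1 or 4 either (adjusted p = 0.054 and 0.073), Itga2 without control tumor 1 or 3 or Sora-treated tumor 2 (adjusted p = 0.067 to 0.086), and Mertk and Emilin2 without any single tumor other than Sora-treated tumor 3 (adjusted p = 0.053 to 0.16).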

How the data were processed

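The authors deposited a table of counts, whole numbers of reads per gene without normalization, and a table of FPKM. The study's methods name Bowtie2, GRCm38, and an expectation maximization algorithm, whereas the submitters' processing notes name fastp, HISAT2, HTSeq, and GRCm39. The annotation and the use of strand are not given in the sources used here. Exons of 16 members share bases with another gene of GENCODE on GRCm38, so reads there are uncertain.

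In the 5 tumors of the count table, FPKM is the count divided by gene length and total count. Each of these tumors was treated as unknown in turn, and every count of a gene with known length came back exactly. The same calculation gave the counts of Sora-treated tumor 4, in which 342 genes without a known length (no member) were set to 0.

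The 16513 genes that reached 10 counts in 3 or more tumors were tested with edgeR 4.0.16 (TMM, quasi-likelihood) in R 4.3.3, with Benjamini-Hochberg adjustment over all genes. The standard error is the log2 fold change divided by the square root of F. Alternatives used DESeq2 1.42.0 and limma 3.58.1 on log2(FPKM + 1) or log2(FPKM + 0.1). The scripts were tested on simulated data. Members and lists were chosen with earlier results of these data known. Genes given with a fold change are members with a p under 0.05 (adjusted or not), the 5 largest changes in each direction, the 5 highest levels, and the called (or smallest-p) genes of the other lists. Lox, Loxl3, Tgfb1, Tgfb2, Cenpp, and Ecm2 fall outside this rule and were chosen after their values were seen. Coordinates are those of RefSeq on GRCm38.p6, matched by symbol. The labels do not say whether tumors came from separate mice, so p-values measure the spread between these samples. One gene of the TGF-beta and YAP target list is not reported here, and the counts of that list leave it out.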

Additional observations from a re-analysis of the deposited data

How the results depend on the processing

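Members called lower numbered 5 without a filter on counts (2.28% of all genes) and 0 with limma on log2(FPKM + 1) of all genes (0% of all genes; 3115 genes, 7 of them members, at an unadjusted p under 0.05). The other scalings, filters, robust dispersion, DESeq2, and limma on filtered FPKM gave 3 or 4 (0.699% to 3.72% of all genes). Members called lower ranged from 0 (without Sora-treated tumor 4, 0.00613% of all genes) to 5 (without Sora-treated tumor 3, 3.5% of all genes) with each tumor left out, and were 2 in the other cases (0.209% to 0.656% of all genes). Members called higher numbered 1 (Ltbp1) in DESeq2 (4% of all genes) and without a filter on counts (2.26%), and ranged from 0 to 1 with each tumor left out (1 without control tumor 1, 0.705% of all genes). The median of the members stayed below 0 in each setting.

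With the replicate number as a block (replicate block), 2 members were called lower (0.273% of all genes), since Mfap5 was not (adjusted p = 0.27, edgeR), and the log2 fold change of Acta2 turned to -0.076. Only numbers 3 and 4 occur in both groups, and deviations from the group means correlated at -0.03 and -0.07 in these pairs, so the numbers were not taken as pairs. The log2 fold change of Acta2 also turned to -0.059 without control tumor 1 and -0.044 without Sora-treated tumor 3, and reached 0.33 without control tumor 4. That of Dcn ranged from -0.021 (without control tumor 1) to 0.067 (without control tumor 4), and was -0.0023 without Sora-treated tumor 4 and -0.0053 in DESeq2 on 5 tumors. The cause of these changes was not tested. DESeq2 on 5 tumors, all alternatives for genes other than the members, and the medians of roles and lists without Sora-treated tumor 4 were added after seeing the data. The receptor and SMAD list had 5 genes called higher in DESeq2 (4% of all genes) and 4 without a filter (2.26%). It had 1 with limma on filtered FPKM (1.46%, or 1.35% with log2(FPKM + 0.1)). None was called with the block (0.484%) or with limma on all genes (0%). The target gene list had 1 with the block and 0 with limma on all genes. Alb, Mertk, Emilin2, and Apoa1 did not pass with the block in edgeR (adjusted p = 0.24, 0.27, 0.41, and 0.062), and Alb, Mertk, Emilin2, Itga2, and Apoa1 did not pass with limma on filtered log2(FPKM + 1) (adjusted p = 0.060, 0.071, 0.060, 0.051, and 0.0995). Mfap4, Fbn2, and Mfap2 had the fewest reads of the members, as few as 63, 74, and 97 in a tumor, and the effect of depth on them was not tested.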
